A study of Mus musculus with 9 samples.

Results

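Ins1, Ins2, Iapp, Pcsk1, Pcsk2, Cpe and Pam encode the main peptide hormones of pancreatic beta cells and the enzymes that cut and finish them. They were taken by symbol from the deposited tables of read counts and of FPKM values (fragments scaled by transcript length and library size), which held all 7. They are 7 of the 24393 genes counted. The comparison was between islets of mice that lack Ogt in cells with Rip-cre and islets of control mice, and it asked how the levels of these transcripts differ when that enzyme is deleted. Ogt encodes O-GlcNAc transferase, which attaches a single sugar to proteins of the nucleus and cytoplasm.

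Mice carry a pair of insulin genes, Ins1 and Ins2, and beta cells secrete insulin together with amylin, the product of Iapp. Each hormone is made as a precursor that enters the endoplasmic reticulum (ER) and is packed into secretory granules. There the convertases PC1/3 (Pcsk1) and PC2 (Pcsk2) cut it after pairs of basic residues, and carboxypeptidase E (Cpe) trims those residues from the cut ends. Peptidylglycine alpha-amidating monooxygenase (Pam) then converts a terminal glycine to an amide, a step that amylin needs and insulin does not. Alpha, delta and PP cells of the islet use several of the same enzymes for their own hormones, PC2 above all in alpha cells.

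RNA was sequenced from islets of female mice that had been kept overnight in RPMI medium with 5 mM glucose. The 4 knockout (KO) libraries had the genotype Rip-cre; Ogt f/f, in which an insulin promoter drives Cre recombinase and both Ogt alleles are floxed. The 5 control (WT) libraries had no Cre, and they carried Ogt f/+ in WT 1 and WT 3 and Ogt f/f in WT 2, WT 4 and WT 5. WT 1, WT 2, WT 3, KO 1 and KO 2 were sequenced in run 1, and WT 4, WT 5, KO 3 and KO 4 in a later run that one label field numbers 3 and another calls the second. No control carried Cre alone, so the deletion and the Rip-cre transgene cannot be told apart. Whole islets hold several endocrine and other cell types, and in such bulk RNA fewer cells of a type and less RNA per cell cannot be told apart. Whether each library came from its own mouse is not in the labels, so the p-values measure the spread among the libraries, which may be only technical.

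The libraries held between 3790984 and 6064578 counts, of which Rn45s, the ribosomal RNA precursor, took 9.64% to 28.6%. Ogt stood at 54.1 to 83.0 CPM in WT (counts scaled to one common library total) and at 23.7 to 39.3 CPM in KO, so the deleted gene followed its labels in all 9 libraries. The defining markers of beta, alpha, delta and PP cells were all detected. The 8 beta cell markers summed to 2085 to 2787 CPM in WT and 1172 to 1726 CPM in KO, and 6 of them fell in the test described below. In that test 8.96% of all tested genes fell and 9.56% rose. The 8 alpha cell markers summed to 21537 to 39180 CPM in WT and 24482 to 64900 CPM in KO, and 1 rose. Their median log2 fold change was 0.46 within run 1 and −0.15 within run 3. The highest sum was that of KO 1, and in run 3 both KO sums lay between the WT sums. The 6 delta and PP cell markers summed to 2986 to 4028 CPM in WT and 3907 to 5510 CPM in KO, and 2 rose. The 14 acinar cell markers, genes of digestive enzymes, summed to 2642, 6633 and 4953 CPM in WT and 2266 and 440 CPM in KO in run 1. In run 3 they summed to 148 and 156 CPM in WT and 99.0 and 258 CPM in KO, and 2 of the 12 tested fell over both runs. The 5 endothelial markers were highest in WT 3 (324 CPM) and KO 2 (429 CPM), against 98.8 to 215 CPM in the other libraries. The 7 fibroblast and stellate cell markers summed to 85.8 to 696 CPM in WT and 181 to 849 CPM in KO, with a median log2 fold change of 0.57 over the 6 tested (0.69 within run 1, 0.42 within run 3), and 1 rose. What part these mixtures have in the results below was not tested, beyond the fit with acinar marker level as a term.

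In the mm10 assembly (GRCm38, GENCODE M21 gene models) Ins1 lies on chromosome 19 from 52264297 to 52265476 on the plus strand. Ins2 lies on the minus strand of chromosome 7 from 142678656 to 142743381, a span that includes readthrough transcripts. Iapp lies on chromosome 6 from 142298423 to 142303961 and Pcsk1 on chromosome 13 from 75089826 to 75134861, both on the plus strand. Pcsk2 lies on chromosome 2 from 143546156 to 143816285 on the plus strand, Cpe on the minus strand of chromosome 8 from 64592542 to 64693054 and Pam on the minus strand of chromosome 1 from 97795114 to 98095646. The counts may mix some transcripts. The annotated transcripts of Ins1 (1062 bases) and Ins2 (478 bases) are 90.8% identical over 456 aligned bases and share a stretch of 56 bases exactly, so some reads may be split between the insulin genes. Of windows of 25 bases, 6.26% of those in Ins1 and 14.3% of those in Ins2 occur exactly in the other transcript. Of windows of 50 bases, 0.691% and 1.63% do. The antisense genes Pcsk2os1 and Pcsk2os2 overlap exons of Pcsk2, and B230216N24Rik overlaps exons of Pam on the same strand. Pcsk2os1 had 45 to 142 counts and Pcsk2os2 had 12 to 83 counts per library, against at least 10245 for Pcsk2.

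RefSeq promoter sequences (GRCm38.p6) were found for 5 of the 7 genes, Ins1, Iapp, Pcsk1, Pcsk2 and Pam. The 250 bases before the start are shown for the 3 matched genes that fell in KO, Iapp, Pcsk1 and Pcsk2, and for Ins1, which did not pass the test, so that their letters can be compared. The intervals are chr19:52264047-52264296 for Ins1, chr6:142298175-142298424 for Iapp, chr13:75089607-75089856 for Pcsk1 and chr2:143545883-143546132 for Pcsk2, each on the plus strand and read 5′ to 3′. The start meant here is the RefSeq start, which for Iapp, Pcsk1 and Pcsk2 differs from the GENCODE gene start given above. The ends of the Iapp and Pcsk1 windows therefore lie inside those gene models. Capitals mark matches on either strand to TAAT, a core read by homeodomain factors, to the E-box CANNTG, to TGACGT, the core of the cAMP response element, and to TGCTGA, part of the Maf recognition element.
Ins1: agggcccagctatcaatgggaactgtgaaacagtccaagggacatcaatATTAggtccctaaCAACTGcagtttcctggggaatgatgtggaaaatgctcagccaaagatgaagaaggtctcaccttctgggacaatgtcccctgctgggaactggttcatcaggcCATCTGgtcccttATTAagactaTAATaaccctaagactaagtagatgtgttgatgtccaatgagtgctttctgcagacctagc
Iapp: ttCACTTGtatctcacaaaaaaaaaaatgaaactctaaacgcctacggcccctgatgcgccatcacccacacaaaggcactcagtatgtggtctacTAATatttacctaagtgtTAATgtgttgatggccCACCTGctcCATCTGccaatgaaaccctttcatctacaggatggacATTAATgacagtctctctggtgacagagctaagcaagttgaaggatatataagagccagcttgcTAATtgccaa
Pcsk1: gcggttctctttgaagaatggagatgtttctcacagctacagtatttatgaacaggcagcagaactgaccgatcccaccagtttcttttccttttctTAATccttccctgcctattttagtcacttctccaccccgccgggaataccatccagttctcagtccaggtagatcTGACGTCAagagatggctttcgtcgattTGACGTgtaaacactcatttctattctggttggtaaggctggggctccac
Pcsk2: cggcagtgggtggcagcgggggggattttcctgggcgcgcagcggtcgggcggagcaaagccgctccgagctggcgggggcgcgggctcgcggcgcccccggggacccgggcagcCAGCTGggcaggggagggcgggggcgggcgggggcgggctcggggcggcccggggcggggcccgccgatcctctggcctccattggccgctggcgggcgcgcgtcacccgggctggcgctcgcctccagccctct
Iapp held 5 matches to TAAT, of which 1 pair overlaps, and 3 E-boxes, and Ins1 held 3 matches to TAAT and 2 E-boxes. Pcsk1 held 3 matches to TGACGT, at positions −78, −76 and −50 from the start, of which the first 2 overlap as the 2 strands of one palindrome, and 1 match to TAAT. Pcsk2 held 1 E-box and no match to the other motifs, and its window was 82.4% G and C, against a median of 52.4% over all windows. The window of Iapp was 42.8%, that of Ins1 46.4% and that of Pcsk1 46.8% G and C. Pam, with 2 windows of 75.6% and 76.4% G and C, held 1 E-box in one of them. Of all 32851 RefSeq windows of this length, 54.9% held TAAT, 66.2% an E-box, 6.47% TGACGT and 16.1% TGCTGA. A match describes the letters and is no evidence that a factor binds there.

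Across the 7 genes, the KO islets had less Iapp, Pcsk1, Pcsk2 and Cpe RNA, while Ins1, Ins2 and Pam did not pass the test. Differences were tested with edgeR's quasi-likelihood test with run as a term, adjusted over all 12501 tested genes by the Benjamini-Hochberg method, and a gene was called at an adjusted p under 0.05. All 7 genes passed the filter on low counts. Of them 4 were called, each lower in KO, and 0 were called higher, where 18.5% of all tested genes were called, 8.96% lower and 9.56% higher in KO. In the same 4 genes every KO library lay below every WT library of its run, as did 11% of all tested genes, and in 0 of the 7 did every KO library lie above, as did 11.9%. The median log2 fold change over the 7 was −0.28, against 0.02 over all tested genes.

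**Figure D1:**
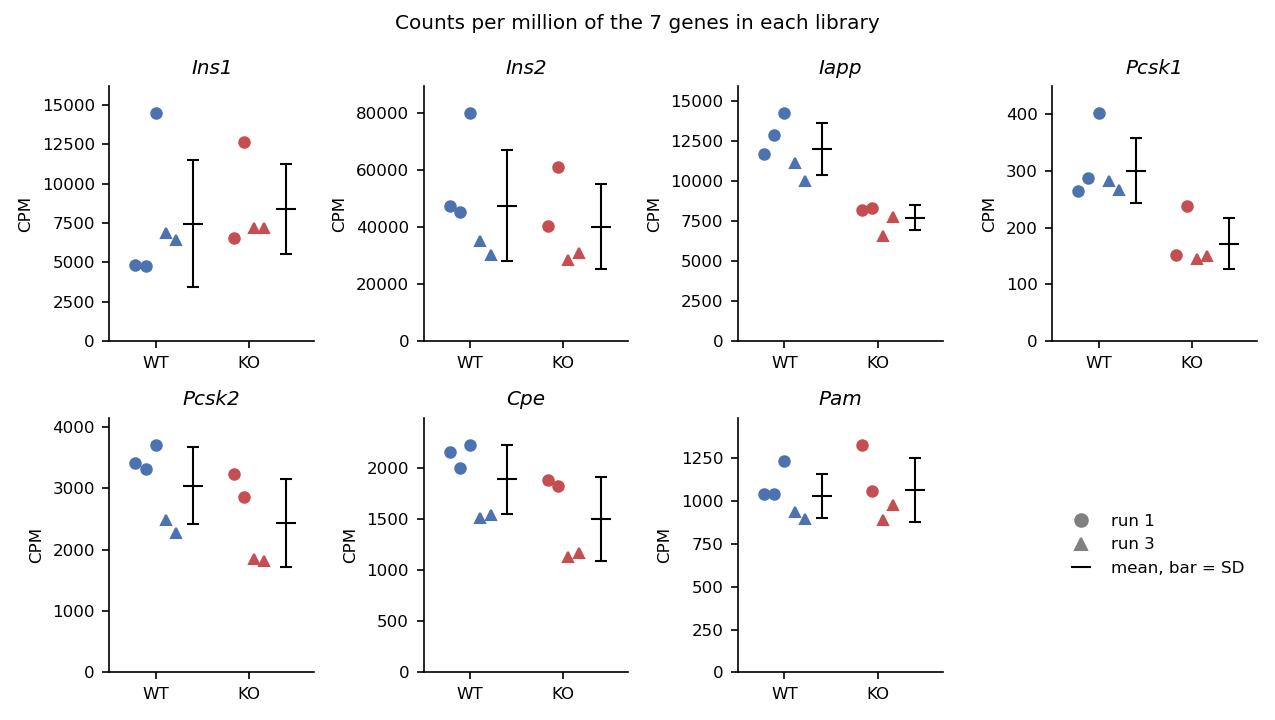
CPM (vertical axis, linear, from 0) of each gene in every library, with WT in blue and KO in red, circles for run 1 and triangles for run 3, and the mean with its SD beside the points. Iapp and Pcsk1 were lower in all 4 KO libraries than in any WT library, Pcsk2 and Cpe within each run, and Ins1 and Ins2 were highest in WT 3 and KO 2.

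Insulin itself showed no difference that passed the test. Ins2, the more abundant of the pair and the one with the ancestral gene structure, stood at 47150, 45188 and 79743 CPM in WT and 40301 and 60917 CPM in KO in run 1. In run 3 it stood at 34877 and 30091 CPM in WT and 28186 and 30813 CPM in KO. The groups overlapped in both runs, with WT 3 and KO 2 above the rest. The mean was 47410 ± 19413 CPM in WT (SD, n = 5), against 40054 ± 14850 CPM in KO (SD, n = 4). The log2 fold change of Ins2 was −0.16 ± 0.16 (SE), with a 95% interval of −0.51 to 0.18 and an adjusted p of 0.534.

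Ins1, a retrotransposed copy with a single intron, stood at 4821, 4760 and 14476 CPM in WT and 6525 and 12638 CPM in KO in run 1. In run 3 it stood at 6847 and 6411 CPM in WT and 7159 and 7187 CPM in KO. Within run 3 both KO libraries lay above both WT libraries, and within run 1 the groups overlapped, as WT 3 was the highest of all. The mean was 7463 ± 4030 CPM in WT (SD, n = 5), against 8377 ± 2857 CPM in KO (SD, n = 4), and the log2 fold change was 0.19 ± 0.27 (SE), with a 95% interval of −0.38 to 0.76 and an adjusted p of 0.665. Single libraries decided its value. Without WT 3 the log2 fold change of Ins1 was 0.56 and was called (adjusted p = 0.0449 in edgeR's test), and without KO 2 it was −0.06. WT 3 and KO 2 were also the libraries with the highest endothelial marker sums, given above, and the part of these cells in the Ins1 value was not tested.

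Taken as a sum, Ins1 and Ins2 held 4.70% to 10.4% of the counts outside Rn45s. The sum averaged 54873 ± 22865 CPM in WT (SD, n = 5), against 48431 ± 17453 CPM in KO (SD, n = 4). The run-adjusted difference was −0.09 on the log2 scale, with p = 0.683 in an exact two-sided permutation test within runs, where 60 arrangements allow no p under 0.0167. WT 3, at 94219 CPM, and KO 2, at 73554 CPM, stood above the other libraries, which reached at most 51971 CPM (WT 1). With no filter on low counts, a setting that tested more genes, Ins1 (0.18, adjusted p = 0.0195) and Ins2 (−0.18, adjusted p = 0.000573) were both called, in opposite directions. These fold changes were close to those of the main fit (0.19 and −0.16), and it was the estimated spread that was smaller there. The libraries themselves still overlapped between the groups as given above.

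Iapp, whose product amylin slows gastric emptying and forms islet amyloid in some species, was 1.53-fold lower in KO in the fit. It stood at 11658, 12873 and 14232 CPM in WT and 8186 and 8297 CPM in KO in run 1, and at 11127 and 9997 CPM in WT and 6573 and 7731 CPM in KO in run 3. All 4 KO libraries lay below all 5 WT libraries, whichever the run. The mean fell from 11977 ± 1630 CPM in WT (SD, n = 5) to 7697 ± 788 CPM in KO (SD, n = 4), and the log2 fold change was −0.61 ± 0.09 (SE), with a 95% interval of −0.81 to −0.41 and an adjusted p of 0.000378. The call was lost without the run term (−0.64, adjusted p = 0.0639). WT 3 and KO 2, which stood out for insulin, were the highest of their groups here as well, but by a small margin. The summed beta cell markers were lower in every KO library too, as given above, and whether fewer beta cells had a part in the lower Iapp was not tested.

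Pcsk1 encodes PC1/3, the convertase that makes the cut at the junction of the B chain and C-peptide of proinsulin. It stood at 265, 287 and 402 CPM in WT and 152 and 239 CPM in KO in run 1, and at 281 and 266 CPM in WT and 145 and 151 CPM in KO in run 3. Every KO library was below every WT library, with WT 3 and KO 2 the highest of their groups. The mean of Pcsk1 fell from 300.1 ± 57.5 CPM in WT (SD, n = 5) to 172 ± 44.8 CPM in KO (SD, n = 4), a 1.72-fold lower level in the fit. This was the widest change among the 7 genes, with a log2 fold change of −0.79 ± 0.13 (SE), a 95% interval of −1.07 to −0.51 and an adjusted p of 0.000803. Pcsk1 was also the least counted of them, with 605 to 1869 counts per library, which gives a counting error of 2.31% to 4.07%.

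Pcsk2, the convertase that cuts at the junction of the A chain and C-peptide and releases glucagon from its precursor in alpha cells, fell by less. In run 1 it stood at 3409, 3318 and 3704 CPM in WT and 3225 and 2850 CPM in KO, and in run 3 at 2477 and 2267 CPM in WT and 1851 and 1816 CPM in KO. The KO libraries lay below the WT libraries within each run, and both genotypes were lower in run 3 than in run 1. The mean of Pcsk2 was 3035 ± 626 CPM in WT (SD, n = 5), against 2435 ± 712 CPM in KO (SD, n = 4). The log2 fold change was −0.28 ± 0.08 (SE), with a 95% interval of −0.45 to −0.10 and an adjusted p of 0.0281. That call was lost without KO 2 (−0.26), WT 4 (−0.23), KO 3 (−0.26) or KO 4 (−0.25), with the f/f controls alone (−0.28), with acinar marker level as a term (−0.28) and without the run term (−0.32, adjusted p = 0.459). The antisense genes over Pcsk2 did not pass the test, at 0.14 for Pcsk2os1 and −0.63 for Pcsk2os2 on the log2 scale.

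Cpe, the exopeptidase that removes the basic residues left by the convertases, followed Pcsk2 closely in size. It stood at 2156, 2005 and 2227 CPM in WT and 1884 and 1828 CPM in KO in run 1, and at 1515 and 1542 CPM in WT and 1131 and 1164 CPM in KO in run 3. Again each KO library lay below each WT library of its run, and the groups overlapped across runs. The mean of Cpe was 1889 ± 339 CPM in WT (SD, n = 5), against 1502 ± 410 CPM in KO (SD, n = 4). The log2 fold change was −0.30 ± 0.08 (SE), with a 95% interval of −0.46 to −0.13 and an adjusted p of 0.0143. The call was lost without KO 3 (−0.27) and without the run term (−0.33, adjusted p = 0.386).

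Pam, the amidating enzyme, did not pass the test. It stood at 1039, 1043 and 1230 CPM in WT and 1327 and 1057 CPM in KO in run 1, and at 933 and 896 CPM in WT and 891 and 977 CPM in KO in run 3. The groups overlapped in both runs. The mean was 1028 ± 130 CPM in WT (SD, n = 5), against 1063 ± 188 CPM in KO (SD, n = 4), and the log2 fold change was 0.07 ± 0.09 (SE), with a 95% interval of −0.11 to 0.26 and an adjusted p of 0.604. KO 1, the highest library for Pam, also had the highest alpha cell marker sum (64900 CPM), and without it the log2 fold change of Pam was −0.01. The part of alpha cells in that value was not tested.

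Tested one at a time by exact two-sided permutation of mean log2 CPM within runs, Iapp, Pcsk1 and Pcsk2 each gave p = 0.0167, the smallest that the 60 arrangements allow. In the same exact test Cpe gave p = 0.0333, Pam p = 0.433, Ins1 p = 0.50 and Ins2 p = 0.55.

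The called genes moved the same way in both runs. The log2 fold change of Iapp was −0.66 within run 1 and −0.57 within run 3, that of Pcsk1 −0.72 and −0.90, that of Pcsk2 −0.21 and −0.38, and that of Cpe −0.21 and −0.42. Within run 1 only Iapp of the 7 was called, where 6.05% of tested genes were, and Pcsk1 missed the threshold there (adjusted p = 0.0755). Within run 3 Iapp, Pcsk1, Pcsk2 and Cpe were called, where 8.17% of tested genes were. The 3 genes that were not called had values of 0.24 and 0.11 (Ins1), −0.20 and −0.15 (Ins2) and 0.09 and 0.02 (Pam) within runs 1 and 3. The difference between the runs was itself tested by the interaction of genotype and run, which called 0% of tested genes, with 744 at an unadjusted p under 0.05. For the 7 genes the interaction's adjusted p-values lay between 0.88 (Cpe) and 0.991 (Ins2).

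**Figure D2:**
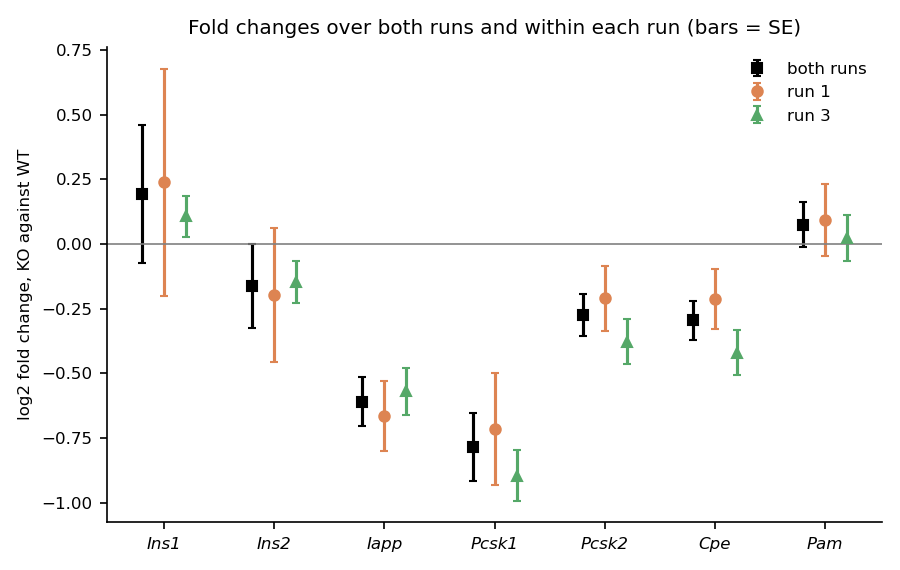
Log2 fold change of KO against WT (vertical axis) for each gene over both runs in black, within run 1 in orange and within run 3 in green, with bars of 1 standard error. The bars of Iapp, Pcsk1, Pcsk2 and Cpe lie below 0 in each of the 3 fits, and those of Ins1 are widest in run 1.

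Because WT held 2 genotypes, the f/+ controls were also compared with the f/f controls. This comparison called 0% of tested genes, with 398 at an unadjusted p under 0.05. Both f/+ libraries, WT 1 and WT 3, were in run 1, where WT 2 was the only f/f control. With run as a term, the f/f controls of run 3 entered only indirectly, through the KO libraries of both runs. The comparison therefore rests mostly on WT 1 and WT 3 against WT 2, and the lack of calls says little about whether the control genotypes differ. Ins1 had the widest difference of the 7, at 0.63 ± 0.42 (SE) with f/+ higher, and Iapp stood at 0.04 ± 0.15 (SE) and Pcsk1 at 0.08 ± 0.21 (SE). For Ins1 only the f/+ library WT 3 was high (14476 CPM), while the f/+ library WT 1 (4821 CPM) was close to WT 2 (4760 CPM). With the f/f controls alone Iapp, Pcsk1 and Cpe were still called.

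A ratio of counts between genes of one library does not depend on library size or scaling, so 7 such ratios were compared between the genotypes, with an exact two-sided permutation test within runs and adjustment over the 7. None passed an adjusted p of 0.05, and the smallest adjusted p was 0.0583. The ratios of Pam to Iapp and of Pcsk1 to summed insulin counts both had an exact permutation p of 0.0167, the smallest that 60 arrangements allow. With the other ratios above that floor, the adjustment turned 0.0167 into 0.0583, so a larger difference could not have been called either. As the counts are not divided by length, each ratio is read only across libraries. The ratios are of whole islets, whose cell types share several of these enzymes, so they are not ratios within a cell type. Pam counts as a share of Iapp counts, the amidating enzyme against its substrate, were 8.91%, 8.10%, 8.64%, 8.39% and 8.97% in WT 1 to WT 5 and 16.2%, 12.7%, 13.6% and 12.6% in KO 1 to KO 4. All 4 KO values lay above all 5 WT values, and the spread within WT was narrow. KO 1, with the highest ratio, also had the highest alpha cell marker sum (64900 CPM). The part of the cell mixture in these ratios was not tested. The difference was 0.68 on the log2 scale, a 1.60-fold higher ratio (exact permutation p = 0.0167, adjusted p = 0.0583).

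Pcsk1 counts were 0.51%, 0.574%, 0.426%, 0.675% and 0.729% of insulin counts (Ins1 and Ins2 summed) in WT 1 to WT 5 and 0.326%, 0.325%, 0.41% and 0.396% in KO 1 to KO 4. The KO values lay below the WT values across all libraries, with a difference of −0.70 on the log2 scale (exact permutation p = 0.0167, adjusted p = 0.0583). Against Pcsk2, the other convertase, Pcsk1 was lower by 0.52 on the log2 scale (exact permutation p = 0.05, adjusted p = 0.0875). The convertase ratio was 7.77% to 11.7% in WT and 4.73% to 8.38% in KO, and it overlapped between the groups in run 1. Iapp counts were 15.1% to 27.4% of insulin counts in WT and 11.3% to 20.3% in KO, a difference of −0.52 (exact permutation p = 0.05, adjusted p = 0.0875). In run 1 those values overlapped, since WT 3 had the lowest WT ratio and the highest insulin level.

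The remaining ratios lay further from the threshold. Ins1 counts were 10.2% to 21.3% of Ins2 counts in WT and 16.2% to 25.4% in KO, a difference of 0.42 on the log2 scale (exact permutation p = 0.117, adjusted p = 0.163). Both KO libraries of run 3 (25.4% and 23.3%) were above both WT libraries of that run (19.6% and 21.3%), and in run 1 WT 3 (18.2%) lay above KO 1. Pcsk2 against insulin differed by −0.18 and Cpe against insulin by −0.20, each with an adjusted p of 0.433 in the exact permutation test.

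**Figure D3:**
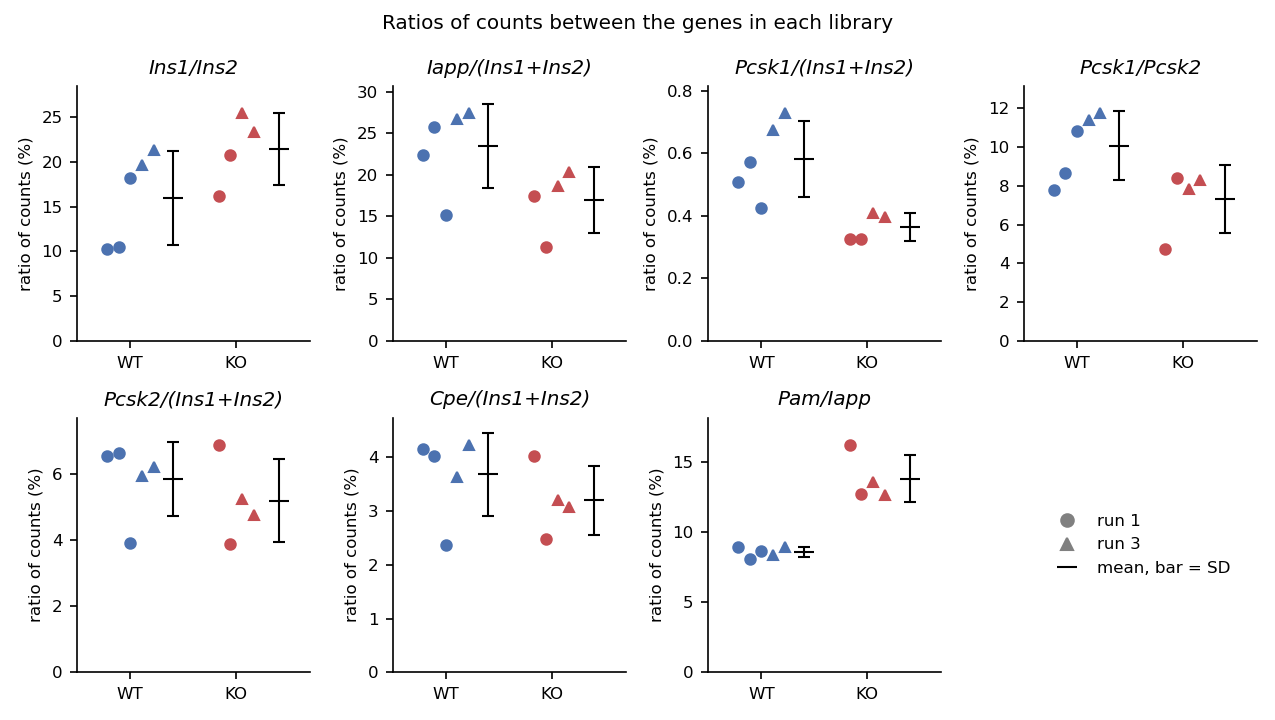
Ratio of counts in percent (vertical axis, from 0) for the 7 gene pairs in every library, with WT in blue and KO in red, circles for run 1, triangles for run 3 and the mean with its SD. Pam against Iapp separates the groups completely, from 8.10% to 8.97% in WT and from 12.6% to 16.2% in KO, while the ratios of Pcsk2 and Cpe to insulin overlap.

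Levels were compared between genes on the FPKM scale, which divides by transcript length. Ins2 was the most abundant, at 147889 ± 53890 FPKM (SD, n = 5) in WT and 125912 ± 41049 FPKM (SD, n = 4) in KO. Iapp followed at 20479 ± 2525 FPKM in WT and 13103 ± 1126 FPKM in KO, and Ins1 at 8335 ± 4190 FPKM in WT and 9382 ± 2814 FPKM in KO. Among the enzymes Cpe stood at 925 ± 121 FPKM in WT and 733 ± 156 FPKM in KO, Pcsk2 at 797 ± 113 and 643 ± 140 FPKM, Pam at 216 ± 22.0 and 223 ± 31.1 FPKM, and Pcsk1 at 112 ± 20.2 and 62.7 ± 15.1 FPKM. The order Ins2, Iapp, Ins1, Cpe, Pcsk2, Pam and Pcsk1 was the same in all 9 libraries. The order of Iapp and Ins1 depends on the division by length, as WT 3, KO 2 and KO 3 had more counts of Ins1 than of Iapp.

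Some neighbours in that order were close. Cpe was 1.08 to 1.24 times Pcsk2 within a library, a gap near the SD of either gene, and Iapp was 1.05 to 4.31 times Ins1. The widest steps were from Ins2 to Iapp (5.89 to 13.2 times within a library) and from Ins1 to Cpe (5.005 to 15.5 times). Pcsk1 ranked between 230 and 430 of all genes by FPKM in WT and between 418 and 863 in KO, and Pam between 123 and 190 in WT and between 118 and 183 in KO.

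On log2(FPKM + 1) with limma, which called 15.5% of the 11878 genes kept, Pcsk1 alone of the 7 was called, at −0.82 ± 0.15 (SE, adjusted p = 0.0068). The log2 fold changes of Iapp (−0.62), Pcsk2 (−0.28) and Cpe (−0.31) were close to those from counts. Their adjusted p-values were 0.286, 0.0732 and 0.0546. For the 3 hormone genes limma's spread, drawn towards a trend over level, was wide (SE of 0.37 for Iapp). Without that trend, a setting added after the data were seen, Iapp and Cpe were called and Pcsk2 was not.

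**Figure D4:**
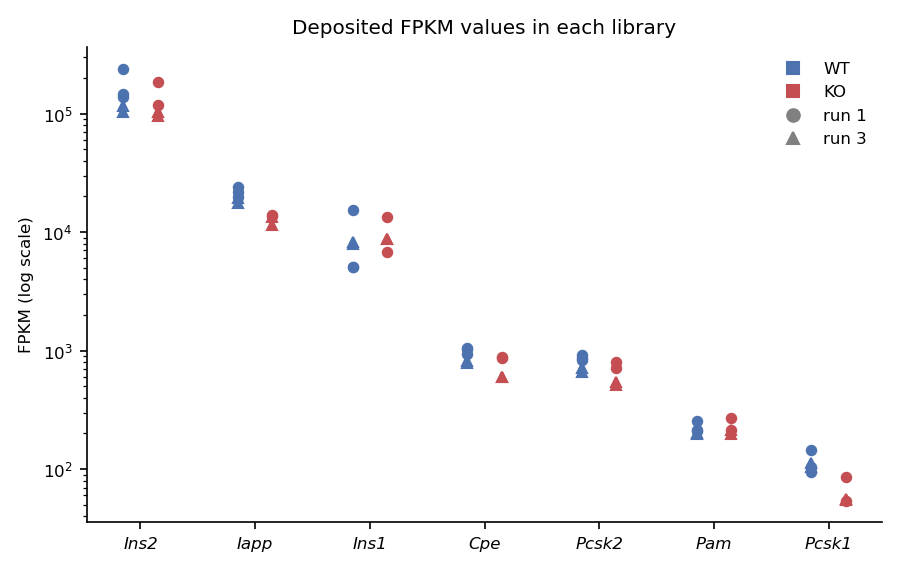
Deposited FPKM values (vertical axis, log scale) of each gene in every library, ordered by the WT mean, with WT in blue and KO in red, circles for run 1 and triangles for run 3. Ins2 reaches 239514 FPKM in WT 3 and Pcsk1 lies at 54.1 FPKM in KO 1, and the order of the 7 genes is the same in each library.

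The other genes of the pathway were described from 7 lists. The list of proinsulin folding in the ER had the most calls, with 12 of 13 tested genes lower, 0 higher and 1 not called, where 8.96% of all tested genes were lower. Its median log2 fold change was −0.48. Ero1l, an oxidase that recharges protein disulfide isomerases, was lower by a log2 fold change of −0.99 (adjusted p = 0.000534), from 126 ± 28.0 CPM in WT (SD, n = 5) to 62.4 ± 12.9 CPM in KO (SD, n = 4). P4hb, the protein disulfide isomerase itself, fell by 0.44 (adjusted p = 0.00126), Hspa5, the chaperone BiP, fell by 0.62 (adjusted p = 0.00422) and Hsp90b1, the chaperone GRP94, fell by 0.48 (adjusted p = 0.00481). Prdx4, a peroxidase of the ER, was the gene not called, at 0.18. Within runs 1 and 3 the values were −1.43 and −0.57 for Ero1l, −0.53 and −0.34 for P4hb, −0.81 and −0.43 for Hspa5 and −0.51 and −0.47 for Hsp90b1. Acinar cells express these genes too, and the median log2 fold change of the acinar markers was −1.81 in run 1 and 0.18 in run 3. The part of acinar RNA in these falls was not tested.

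Translocation into the ER and removal of the signal peptide gave 4 lower, 0 higher and 10 not called of 14 tested genes. The called share was 28.6%, against 18.5% of all tested genes, with a median of −0.14. Sec11c, a catalytic subunit of the signal peptidase, fell by 0.99 (adjusted p = 0.000227), and Spcs3, another of its subunits, fell by 0.54 (adjusted p = 0.00113). Ssr3, a subunit of the translocon-associated protein complex, fell by 0.48 (adjusted p = 0.00115). Sec63, a membrane J-protein of the translocon, fell by 0.30 (adjusted p = 0.0177) and lost that call without KO 1 (−0.25) or KO 2 (−0.28). The channel genes Sec61a1 (0.21), Sec61b (−0.10) and Sec61g (−0.14) were not called, values that were chosen after they were seen.

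Of 14 tested genes among other convertases, exopeptidases and cofactors, 2 rose, 4 fell and 8 were not called. The called share was 42.9%, against 18.5% of all tested genes, with a median of −0.27. Furin, the convertase of the constitutive secretory pathway, rose from 86.5 ± 16.4 CPM in WT (SD, n = 5) to 135 ± 34.0 CPM in KO (SD, n = 4), giving a log2 fold change of 0.68 (adjusted p = 0.000112). Pcsk1n, whose product proSAAS is an inhibitor of PC1/3, rose from 464 ± 38.7 CPM in WT (SD, n = 5) to 667 ± 118 CPM in KO (SD, n = 4), giving a log2 fold change of 0.54 (adjusted p = 0.000298). The falls included the lysosomal proteases Ctsl (−0.61, adjusted p = 0.000565) and Ctsb (−0.54, adjusted p = 0.00111). The other falls were Pcsk6, a convertase of secreted growth factors (−0.47, adjusted p = 0.0294), and Scg5, which encodes 7B2, the chaperone that PC2 needs for its activation (−0.28, adjusted p = 0.0304), both named after their values were seen.

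The vacuolar proton pump acidifies the granule in which the convertases work, and its genes were called at about the rate of all tested genes. Of 16 tested, 2 rose, 1 fell and 13 were not called, a called share of 18.8% against 18.5% of all tested genes, with a median of −0.07. Atp6v1d, a subunit of the central stalk, rose by 0.55 (adjusted p = 0.000252), and Atp6v1f rose by 0.28 (adjusted p = 0.0416), a call lost when WT 2, WT 3, WT 4, WT 5, KO 1, KO 3 or KO 4 was left out (0.21 to 0.30). Atp6ap2, an accessory subunit, fell by 0.37 (adjusted p = 0.00897). Pam needs copper and ascorbate, and of 5 tested genes of that supply 1 fell and 4 were not called, a called share of 20%, also near that of all tested genes. It was Slc23a2, an ascorbate transporter (−0.37, adjusted p = 0.0365), whose call was lost when WT 3, WT 5 or any KO library was left out (−0.40 to −0.29), and Atp7a, the copper pump of the secretory pathway, stood at −0.20 (named after its value was seen).

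Other precursors that the same enzymes cut gave 1 rise, 1 fall and 8 genes not called of 10 tested, a called share of 20% that is near the 18.5% of all tested genes, with a median of 0.22. Pyy, peptide YY, rose from 728 ± 102 CPM in WT (SD, n = 5) to 1239 ± 249 CPM in KO (SD, n = 4), giving a log2 fold change of 0.80 (adjusted p = 3.58e-05). Vgf, a granin-like precursor, fell by 0.98 (adjusted p = 0.00297). Of the 17 transcription factors of the insulin genes, all tested, 3 rose, 5 fell and 9 were not called. The called share was 47.1%, against 18.5% of all tested genes, with a median of −0.09. Mafa, a basic leucine zipper activator of Ins1 and Ins2, fell by 1.53 (adjusted p = 0.00152), with values of −0.94 within run 1 and −2.23 within run 3. Insm1, a zinc finger factor of endocrine cells, fell by 0.45 (adjusted p = 0.00108), Neurod1, which binds E-boxes, fell by 0.33 (adjusted p = 0.00776), and Hnf4a, a nuclear receptor, rose by 0.64 (adjusted p = 0.00306).

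**Figure D5:**
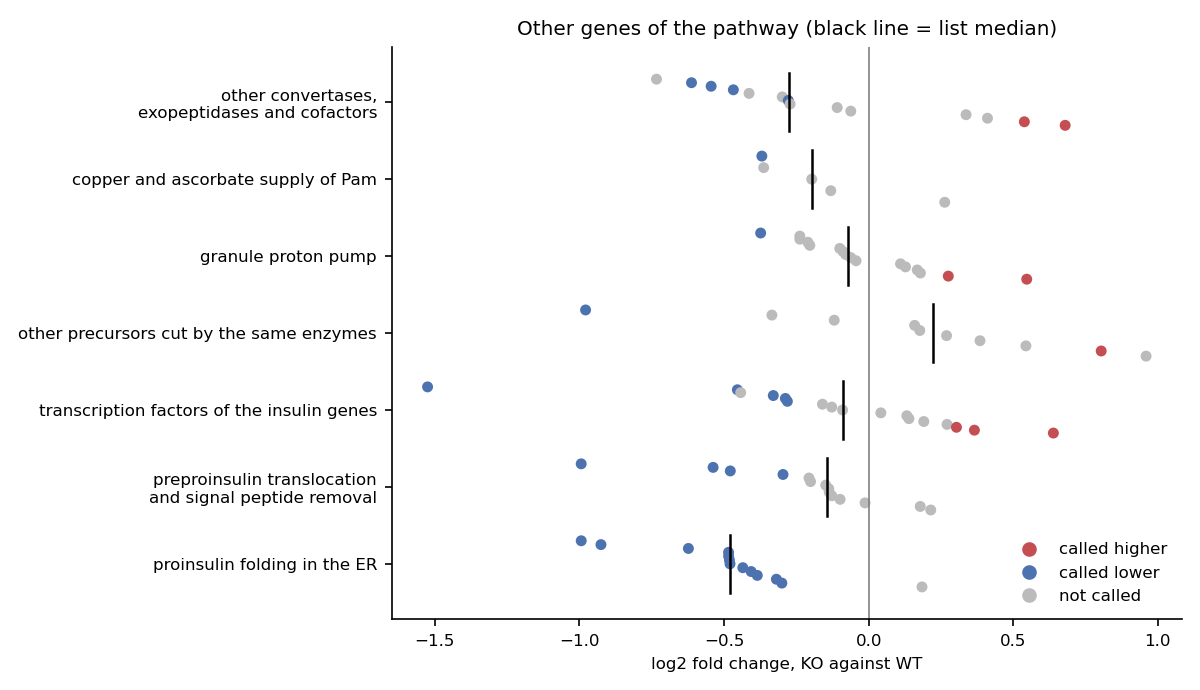
Log2 fold change of KO against WT (horizontal axis) of each tested gene of the 7 lists, with called rises in red, called falls in blue, genes not called in grey and a black line at the list's median. The folding list lies to the left of 0 apart from 1 gene, with a median of −0.48, and the other lists spread to both sides.

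The genes whose levels followed each of the 7 most closely over the 9 libraries were found by Pearson's correlation of log2 CPM centred within run, among 7375 tested genes whose average log2 CPM was 4 or more. Both genotypes were included, so a shared KO difference enters the measure. For Ins1 they were Ptprb (0.986), Cdh5 (0.982) and Dnajc24 (0.975), of which Ptprb and Cdh5 are genes of endothelial cells. For Ins2 they were Scnn1b (0.976), Phf2 (0.974) and Foxred2 (0.953), and none of the 6 genes was called. For Iapp they were Cebpg (0.995), Tmem65 (0.994) and Rab3d (0.984), and for Pcsk1 they were Sytl4 (0.993), Ptprf (0.990) and Slc4a7 (0.988). All 6 of these were called lower, from −0.35 for Ptprf to −0.99 for Slc4a7. For Pcsk2 they were Copb1 (0.983), Slc25a23 (0.976) and Far1 (0.969), for Cpe B3galnt1 (0.984), Coro2b (0.980) and Degs1 (0.974), and for Pam Upb1 (0.923), Ppl (0.923) and Ttc9 (0.908). Of the 3 for Pcsk2, Far1 was called lower (−0.51), while Copb1 (−0.20, adjusted p = 0.0636) and Slc25a23 (−0.24, adjusted p = 0.0673) were not called. All 3 for Cpe were called lower and none of those for Pam was called. Among all tested genes 8.96% were called lower. Because these genes were picked for following the 7 over both genotypes, their calls are no separate result.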

How the data were processed

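Islet RNA was made into libraries with a stranded total RNA kit, per the labels' protocols. The Rn45s counts given above show that some ribosomal RNA was sequenced too. The authors deposited raw read counts by gene symbol and FPKM values by gene symbol, in tables with 1 column per library. Bowtie2 2.2.4.0, Cuffdiff 2.2.1, FastQC, edgeR and the build mm10 are named without a role per the submitters' processing notes. For the counter, its use of strand and its treatment of reads with several matches, the answer was not given in the sources used here.

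Among 24420 counted symbols 27 had become dates and were left out (0.133% to 0.186% of a library's counts), which left 24393. Counts were tested with edgeR 4.0.16 in R 4.3.3 (glmQLFit, TMM scaling, filterByExpr, terms for run and genotype), with adjustment over 12501 genes. CPM uses TMM-scaled library sizes, and log2 CPM a prior count of 2. The deposited FPKM values were tested with limma 3.58.1 on log2(FPKM + 1), which understates changes of low genes, for genes of at least 1 FPKM in at least 4 libraries. Single genes and ratios were tested by exact two-sided permutation within runs (60 arrangements). The functions for the tests were tested on simulated data with 200 changed genes. Replicate pairs differed by 3.98 to 73.1 per degree of freedom in a chi-square test of their counts, so none was a library deposited again. The lowest value was that of KO 3 with KO 4, the KO libraries of run 3, against 42.5 for WT 4 with WT 5. Total counts limit precision through counting error, and other effects of depth were not tested.

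The 7 genes, the lists and the markers were chosen with earlier results of these data known. Named are all 7, from each list up to 4 called genes with the lowest p, and for each of the 7 the 3 genes most correlated with it. Others are said to be named after their values were seen. Alternatives were DESeq2 1.42.0, limma-voom, other scalings, filters and terms, f/f controls alone, single runs and leaving out each library.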

Additional observations from a re-analysis of the deposited data

Results flagged for a closer look

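Among 28 sets of values (7 genes and 7 ratios in each genotype), 6 held a library far from its group, judged by its gap to the nearest library as a share of the group's range. Chance flags about 1 in 20 independent groups drawn from a single normal population. These sets share genes and libraries and span both runs, so that rate does not apply directly. KO 2 was far above the other KO libraries for Ins1 (gap of 0.854 of the range) and for Pcsk1 (0.90), and WT 3 was far above the other WT libraries for Pcsk1 (0.812). WT 3 was far below the other WT libraries in the ratios of Pcsk2 (0.786) and of Cpe (0.739) to insulin. KO 1 was far below the other KO libraries in the ratio of Pcsk1 to Pcsk2 (0.883). It also had the highest alpha cell marker sum, and the part of alpha cells in that ratio was not tested.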

How the results depend on the processing

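The falls of Iapp, Pcsk1, Pcsk2 and Cpe kept their direction under all 28 alternatives each, with log2 fold changes of −0.66 to −0.55, −0.98 to −0.69, −0.38 to −0.21 and −0.42 to −0.21, and were called in 24, 27, 15 and 23 of them. Calls were lost without the run term for Iapp (−0.64), Pcsk2 (−0.32) and Cpe (−0.33), where 672 genes and 1 of the 7 were called, and within run 1 for Pcsk1 (−0.72), Pcsk2 (−0.21) and Cpe (−0.21), where 756 genes and 1 of the 7 were called. Within run 3 1021 genes were called. On log2(FPKM + 1) Iapp (−0.62), Pcsk2 (−0.28) and Cpe (−0.31) lost their calls with or without the filter on low values, which left 1 of the 7, and 1300 genes were called without the filter. On log2(FPKM + 0.1) Iapp (−0.62) and Pcsk2 (−0.28) did, which left 2 of the 7. Pcsk2 also lost its call with the acinar marker level as a term (−0.28, 1444 genes called) and with the f/f controls alone (−0.28, 1538 genes called). With no filter on counts Ins1 (0.18) and Ins2 (−0.18) were called. A further 3 settings were chosen after seeing the data. Leaving out WT 2 and WT 5 gave 1488 called genes, leaving out WT 2 and KO 2 gave 1519, with Ins1 at −0.15 and Pcsk2 not called (−0.28), and FPKM without a variance trend lost the call of Pcsk2 (−0.28). Leaving out single libraries gave Ins1 −0.0613 to 0.56 (negative without KO 2, called without WT 3), Pam −0.0133 to 0.13 (negative without KO 1), Pcsk2 −0.34 to −0.23, Cpe −0.33 to −0.27, and 2 to 5 called of the 7. It gave 2 to 5 falls among the other convertases, 0 to 1 fall in the copper and ascorbate list, 1 to 2 rises and 1 to 2 falls in the proton pump list, 1 to 3 rises among other precursors, 1 to 3 rises and 3 to 6 falls among transcription factors, 0 to 1 rise in the translocation list and 8 to 12 falls in the folding list (8 without KO 1 or WT 4). DESeq2 and RLE size factors each gave 2 falls in the proton pump list. Of the 22 named list genes, 19 kept their call with DESeq2, RLE and every single library left out. All 7 ratios kept their direction in 14 alternatives each, and none was called. In 6 of these the smallest exact permutation p in the design was above 0.05, so no ratio could be called there (0.1 within run 1, 0.333 within run 3, and 0.0556 with the f/f controls alone or without WT 1, WT 2 or WT 3). The causes of these changes were not tested. No paired analysis was possible because the labels give no replicate numbers, and those used here only follow accession order.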
